A study of Mus musculus with 6 samples.

Results

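Pluripotency in the early mouse embryo is held by a small circuit of transcription factors, and the 10 genes described here are the parts of it that remain active, or switch on, as cells leave the naive state. Pou5f1 (also called Oct4), Sox2, Sall4, Utf1 and Lin28a make up the core group: the first 4 encode DNA- or chromatin-binding proteins of undifferentiated cells, and Lin28a encodes an RNA-binding protein that blocks maturation of let-7 microRNAs. Otx2, Fgf5, Pou3f1 (Oct6), Zic2 and Epha5 mark the primed state of the epiblast after implantation. In embryoid bodies, which are aggregates that mimic this transition, the primed genes appear for a time before the germ layers form, and the core genes are then shut down. Several members also act elsewhere: Sox2, Otx2, Pou3f1 and Zic2 in neuroectoderm, Otx2 in visceral endoderm, and Pou5f1, Sox2, Sall4 and Lin28a in germ cells.

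The members were taken by gene symbol, and all 10 were found among the 31265 genes of the deposited table. The cells were wild-type mouse E14Tg2a embryonic stem cells, described as clonal, that carry the Grx1-roGFP2 sensor in the nucleus. This fluorescent protein reports the glutathione redox state. Before differentiation they grew in serum with LIF and 2i, which hold the naive state, and these were then withdrawn and hanging drops formed embryoid bodies. On day 5 the 10% of live (propidium iodide-negative) cells with the most oxidized sensor and the 10% with the most reduced sensor were collected, separately for the 3 populations (A, B, C), so that every library comes from sensor-bearing, differentiated cells and no unsorted cells are among the 6 libraries. The sources used here do not say what distinguishes the 3 populations, and p-values therefore measure the spread between these populations, which may be technical. Levels are in FPKM (fragments counted on a transcript, corrected for its length and for library size) and may be compared between genes.

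The libraries held an estimated 1.18e+07 to 1.79e+07 fragments, fewest in those of population C. These estimates are rough, since only 33.9% to 37.5% of low values fell on whole fragments, within 2%. Oxidized A and B stood apart from the other 4 in 2 abundant transcript classes. The 2 table rows of the ribosomal RNA locus CT010467 summed to 1798 and 2358 FPKM in them, against 41528 to 52117 FPKM elsewhere, and the 13 mitochondrially encoded mRNAs to 7349 and 5160 FPKM, against 2324 to 3917 FPKM. Oxidized C was thus nearer to the reduced libraries in these classes. Values without oxidized A and B, or without other libraries, are given beside the members' results below; the part of these transcript classes in the results was not tested.

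The proximal promoters of 4 members are shown because their levels give the contrasting patterns described below: Pou5f1 and Utf1 were lowest by far in 1 library, Sox2 is the partner of Pou5f1, and Fgf5 followed the population. The bases precede the gene start on the sense strand, taken from RefSeq (GRCm38.p6), and capitals mark matches on either strand to the octamer start ATGCAA (bound by POU proteins such as Pou5f1 when part of the octamer ATGCAAAT), the SOX core ACAAAG and the GC box GGGCGG. Windows were cut where GENCODE places the gene start earlier. For Sox2 GENCODE places it 410 bases after the RefSeq start, so the Sox2 window lies that much further from the gene start given below.
Pou5f1, chr17:35505782-35506017, plus strand: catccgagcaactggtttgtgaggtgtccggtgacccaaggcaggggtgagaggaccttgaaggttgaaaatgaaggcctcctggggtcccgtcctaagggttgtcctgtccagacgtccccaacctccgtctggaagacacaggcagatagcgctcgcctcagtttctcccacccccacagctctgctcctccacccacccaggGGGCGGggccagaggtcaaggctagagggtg
Utf1, chr7:139943606-139943788, plus strand: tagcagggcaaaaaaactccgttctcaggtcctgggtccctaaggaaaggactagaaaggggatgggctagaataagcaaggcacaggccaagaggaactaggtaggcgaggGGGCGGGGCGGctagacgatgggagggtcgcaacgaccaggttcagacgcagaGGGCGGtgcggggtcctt
Sox2, chr3:34649745-34649994, plus strand: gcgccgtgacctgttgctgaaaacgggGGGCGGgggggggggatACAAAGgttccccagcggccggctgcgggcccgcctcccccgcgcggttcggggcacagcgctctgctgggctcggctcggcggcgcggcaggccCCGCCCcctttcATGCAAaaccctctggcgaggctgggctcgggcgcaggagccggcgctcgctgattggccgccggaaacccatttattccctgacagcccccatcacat
Fgf5, chr5:98253934-98254183, plus strand: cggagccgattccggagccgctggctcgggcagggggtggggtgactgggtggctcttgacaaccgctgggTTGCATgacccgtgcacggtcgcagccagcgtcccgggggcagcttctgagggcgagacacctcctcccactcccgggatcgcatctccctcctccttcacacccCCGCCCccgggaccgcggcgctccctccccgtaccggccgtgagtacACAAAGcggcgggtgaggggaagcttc

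Of the 10 members, 7 matched a RefSeq promoter entry; Sall4, Pou3f1 and Zic2 did not. Over the 250 bases before the start, none of the 7 held the full octamer ATGCAAAT, which occurs in 1.6% of all 32851 promoter windows of that length. The octamer start ATGCAA, which is part of the full octamer, was found in Sox2 (99 bases upstream of the RefSeq start) and Fgf5 (179 bases upstream), against 9.45% of all windows. Those promoters also held the SOX core ACAAAG, 206 and 27 bases upstream, against 16.5% of windows. The GC box GGGCGG, found in 32.7% of windows, occurred 4 times in Utf1, where the pair 138 and 133 bases upstream overlap and the match 56 bases upstream lies past the GENCODE start and is not printed. It occurred 1 time in Pou5f1, 45 bases upstream. Sox2 held it 223 and 111 bases upstream, Fgf5 74 bases upstream and Epha5 75 and 60 bases upstream. The Otx2 entry starts inside the GENCODE gene and is not printed. These matches describe the letters only.

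The members covered a wide range of levels. The mean over the 6 libraries was 174 FPKM for Utf1, 151 FPKM for Pou5f1, 54.2 FPKM for Sox2, 19.7 FPKM for Sall4 and 18.8 FPKM for Lin28a. The primed genes were lower, at 8.42 FPKM for Fgf5, 6.68 FPKM for Pou3f1, 5.33 FPKM for Otx2 and 1.17 FPKM for Zic2. Utf1 and Pou5f1 lay above 97.7% and 97.3% of the 12191 genes averaging 1 FPKM or more, and Otx2 above 43.7%. Neighbours in this order often changed places: Utf1 was above Pou5f1 in 3 of 6 libraries, and Fgf5 above Pou3f1 in 4 of 6. Sall4 was above Lin28a in each of the 3 oxidized libraries and below it in each of the 3 reduced ones. In population C the 2 were close, with Sall4 at 1.02 times Lin28a in oxidized and 0.922 times in reduced cells. Pou5f1 exceeded Sox2, and Fgf5 exceeded Otx2, in 6 of 6.

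Epha5, an ephrin receptor tyrosine kinase and a marker of the primed state (chr5:84054761-84417382), was in effect not detected. It was listed at 0.0128, 0.0196 and 0 FPKM in oxidized cells (A, B, C) and at 0.0033, 0.0035 and 0.0095 FPKM in reduced A, B and C. These levels correspond to at most about 5.0 fragments per library at the estimated depth, and no fold is given. All 5 genes of its ephrin-A ligands were measured and none was called. Of these, 1 had an unadjusted p under 0.05 (limma), against 19.4% of all tested genes in either direction. The 2 with the smallest p were Efna2 and Efna4. Efna2 was at 20.1 ± 3.73 against 13.1 ± 1.08 FPKM (oxidized against reduced, SD, n = 3 each). Its adjusted p was 0.145 (limma), and 0.0374 without oxidized C. Efna4 was at 18.3 ± 1.18 against 14.4 ± 2.08 FPKM (limma, adjusted p = 0.290). Without oxidized C 9.72% of all tested genes were called, and this share applies to every call in that fit named below. The fit sets only oxidized A and B, which stood apart in CT010467 and mitochondrial mRNAs, against the reduced libraries. Its calls therefore cannot separate the redox group from that split.

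The question of the comparison is whether cells with a more oxidized or more reduced nucleus differ in these genes. No member was called. The test was limma on log2(FPKM + 1) over 12191 genes, with a call at a Benjamini-Hochberg adjusted p under 0.05, and 9 members passed the filter of 1 FPKM on average. Of all tested genes 0.796% were called: 63 had the higher level in oxidized cells and 34 the lower, and the split was 58 to 50 after median-ratio scaling and 54 to 51 after quantile normalization. With a block for the population 4 genes were called, none a member. At an unadjusted p under 0.05, 1 of the 9 members passed, against 19.4% of all genes. The authors' deposited table gave no member a q-value under 0.05, against 2.76% of its 31265 genes. It gave 3 members, Pou5f1, Pou3f1 and Sox2, a p-value under 0.05, against 11.7% of its genes. The log2 differences (oxidized minus reduced) were positive for 4 members and negative for 5, with a median of -0.17 beside 0.08 for all tested genes. The sign of that median turned without oxidized A (0.10) and without oxidized C (0.22). In bulk libraries, fewer cells of a type and less RNA per cell cannot be told apart.

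**Figure D1:**
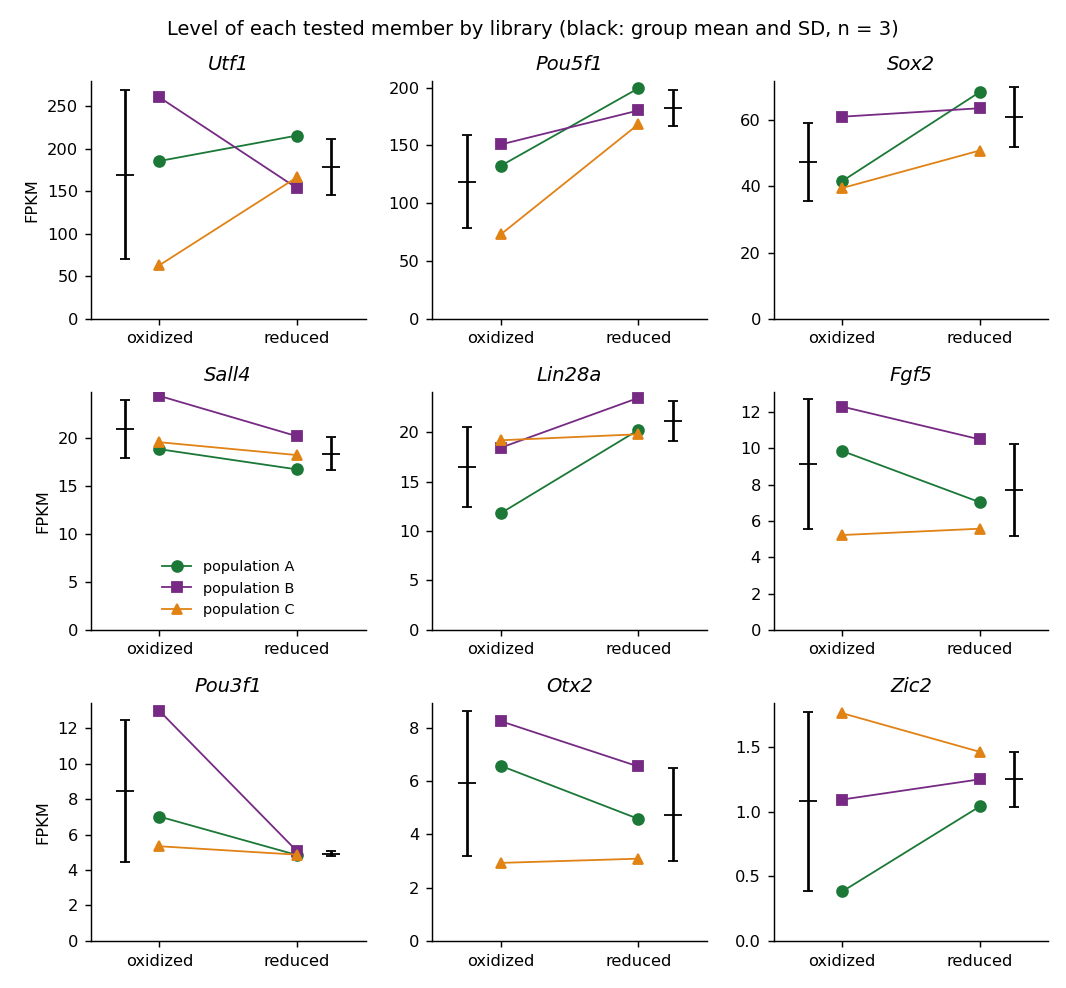
FPKM of the 9 tested members in oxidized and reduced libraries, on a linear axis from 0; coloured points joined by a line are the libraries of 1 population, and black bars are the group mean and SD (n = 3). Pou5f1 was lower in oxidized cells in each population, while Otx2 and Fgf5 kept the order B, A, C in both groups.

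Pou5f1 encodes the POU-domain factor without which pluripotent cells are lost (chr17:35506018-35510772). It was at 132, 151 and 73.0 FPKM in oxidized cells (A, B, C), and at 199, 180 and 168 FPKM in reduced A, B and C. Every oxidized value lay below every reduced value, and oxidized C was lowest by a factor of 1.81 below the next library. The group levels were 119 ± 40.7 against 183 ± 15.7 FPKM (SD, n = 3 each), a log2 difference of -0.68 (SE 0.26, 95% interval -1.28 to -0.08). This had an unadjusted p of 0.0303 and did not pass correction (limma, adjusted p = 0.209). With the population as a block the unadjusted p was 0.0176, also without passing correction (limma, adjusted p = 0.183). The authors' deposited table gave Pou5f1 a p-value of 0.00293 and a q-value of 0.0754. The level in reduced cells was 1.51 times that in oxidized cells in population A, 1.20 times in B and 2.31 times in C. Without oxidized C the log2 difference was -0.36 (adjusted p = 0.221), and without oxidized A and B it was -1.31 (0.103), so the size of the difference depended on the libraries used.

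Sox2, whose protein binds DNA together with the Pou5f1 protein (chr3:34650405-34652461), was at 41.6, 61.1 and 39.5 FPKM in oxidized cells (A, B, C). It was at 68.6, 63.7 and 50.9 FPKM in the reduced libraries. The oxidized value was the lower in each population, but the groups overlapped because oxidized B stood above reduced C. The log2 difference was -0.37 (SE 0.21, 95% interval -0.85 to 0.10, limma adjusted p = 0.352). It was -0.57 without oxidized B (adjusted p = 0.266) and -0.60 without oxidized A and B (0.365). The level of Pou5f1 relative to Sox2 was 3.18, 2.47 and 1.85 in oxidized cells (A, B, C), against 2.91, 2.83 and 3.31 in the reduced libraries. This ratio was thus lowest in oxidized C, where Pou5f1 was low and Sox2 was close to its value in oxidized A.

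Utf1, a chromatin-associated protein gene that is closely tied to the undifferentiated state (chr7:139943789-139945112), varied more than any other core gene. It was at 186, 261 and 62.9 FPKM in oxidized cells (A, B, C), and at 216, 154 and 166 FPKM in the reduced libraries. Oxidized B held the highest value and oxidized C the lowest, 2.44 times below the next library, so the oxidized range enclosed the reduced one. The level in oxidized cells was 0.861 times that in reduced cells in A, 1.69 times in B and 0.378 times in C. The log2 difference of -0.28 (SE 0.45, adjusted p = 0.755) became 0.31 without oxidized C (adjusted p = 0.401) and -1.47 without oxidized A and B (0.106). Its 95% interval, from -1.31 to 0.74, was the widest of any member.

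Lin28a (chr4:134003330-134018841) had its lowest value in another library. It was at 11.8, 18.5 and 19.2 FPKM in oxidized cells (A, B, C) and at 20.2, 23.5 and 19.8 FPKM in the reduced libraries, with no overlap between the groups. The level in reduced cells was 1.71 times that in oxidized cells in A, 1.27 times in B and 1.03 times in C, and the log2 difference was -0.37 (SE 0.20, adjusted p = 0.349). It was -0.16 without oxidized A (adjusted p = 0.683) and -0.13 without oxidized A and B (0.840). Sall4, a zinc-finger factor that recruits the NuRD complex (chr2:168748332-168767943), was at 18.9, 24.5 and 19.6 FPKM in the oxidized and 16.8, 20.2 and 18.3 FPKM in the reduced libraries. Its oxidized value was the higher in each population, by 12.6%, 20.8% and 7.36%. The log2 difference of 0.17 (95% interval -0.20 to 0.55, adjusted p = 0.580) was 0.06 without oxidized B, 0.09 without oxidized A and B and 0.08 after either median-ratio scaling or quantile normalization. Sall4 was the tested member with the narrowest range, 1.46 times from lowest to highest.

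**Figure D2:**
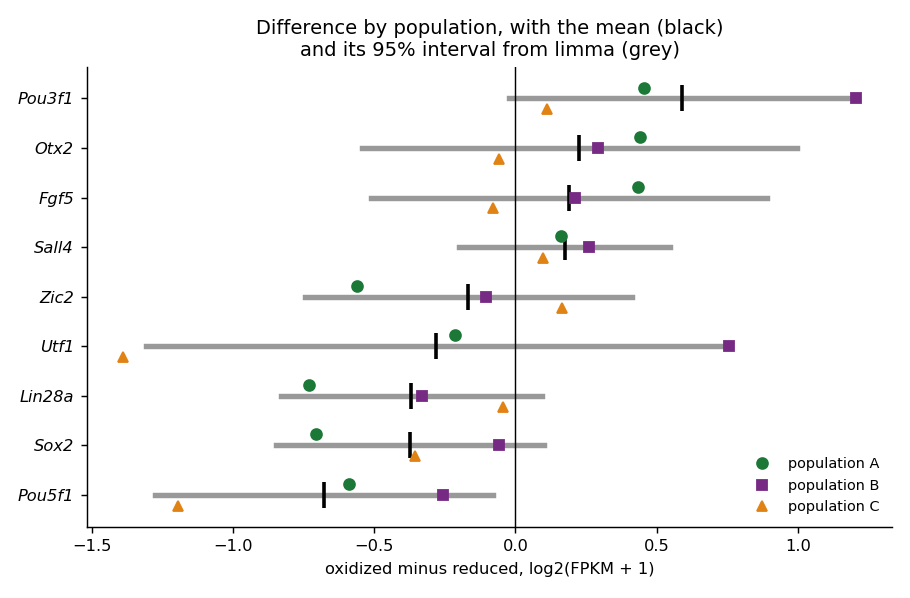
Log2(FPKM + 1) in oxidized minus reduced cells for the 9 tested members; coloured symbols are the 3 populations, black marks the mean and grey bars its 95% interval from limma. Only the interval of Pou5f1 excludes 0 before correction, and Utf1 ranges from below -1 in population C to above 0.5 in population B.

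Counted over populations, Pou5f1, Sox2 and Lin28a had lower oxidized values in all 3, as had 16.4% of all tested genes. Sall4 and Pou3f1 had higher oxidized values in all 3, as had 26.9% of tested genes. The groups did not overlap for Pou5f1 and Lin28a (lower in oxidized cells, 8.81% of tested genes) and Pou3f1 (higher, 16.2% of tested genes). These counts of 1 to 3 among 9 members are given as descriptions only.

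Pou3f1 encodes a POU factor that is switched on in the primed epiblast and in neural progenitors (chr4:124656807-124660655). It was at 7.01, 13.0 and 5.34 FPKM in oxidized cells (A, B, C), against 4.85, 5.07 and 4.86 FPKM in the reduced libraries. The reduced values were nearly equal and every oxidized value lay above them, with oxidized B well above the rest. The log2 difference was 0.59 (SE 0.27, 95% interval -0.02 to 1.20, adjusted p = 0.273). It was 0.84 without oxidized C (adjusted p = 0.0565), 0.27 without oxidized B (0.522), 0.28 without population B (0.656) and 0.10 without oxidized A and B (0.875). By population the difference was 0.45 in A, 1.20 in B and 0.11 in C. With the population as a block the unadjusted p was 0.0418, without passing correction (limma, adjusted p = 0.242). The summed level of 13 neuroectoderm genes was also higher in oxidized cells, at 29.9, 37.6 and 20.8 FPKM in oxidized cells (A, B, C), and 10.0, 9.27 and 13.2 FPKM in the reduced libraries. Their part in the level of Pou3f1 was not tested. Of these 13 genes 8, among them the defining genes Pax6 and Sox1, did not reach a mean of 1 FPKM. None of the 5 tested was called, though 4 had an unadjusted p under 0.05 and a higher level in oxidized cells (limma). Of all tested genes 19.4% were under that p, in either direction. Cdh2, a cadherin of neural cells and mesoderm, was at 7.67 ± 1.07 against 3.69 ± 0.234 FPKM (adjusted p = 0.0545), and Irx3, a neural patterning factor, at 10.98 ± 4.34 against 2.27 ± 1.54 FPKM (0.0599; 0.0326 without reduced C). Both were called without oxidized C (limma, adjusted p = 0.00841 and 0.00500), a fit that called 9.72% of all tested genes.

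Otx2 and Fgf5 followed the population of origin in these libraries. Otx2 encodes the homeobox factor that directs the move from the naive to the primed state (chr14:48657677-48673819). It was at 6.57, 8.24 and 2.93 FPKM in oxidized cells (A, B, C) and at 4.58, 6.55 and 3.09 FPKM in the reduced libraries. Fgf5, a secreted growth factor and the usual marker of the primed epiblast (chr5:98254184-98277030), was at 9.86, 12.3 and 5.23 FPKM in the oxidized and 7.04, 10.5 and 5.58 FPKM in the reduced libraries. In both genes population B was highest and C lowest in each group, and both libraries of C lay below the 4 others, which held for 10.4% of tested genes. The mean of both libraries of B was 2.46 times that of C for Otx2 and 2.11 times for Fgf5.

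No difference between oxidized and reduced cells was called for this pair. The log2 difference was 0.23 for Otx2 (SE 0.34, adjusted p = 0.740) and 0.19 for Fgf5 (SE 0.31, adjusted p = 0.760), and both were close to 0 without oxidized B (-0.03 and -0.04) or without reduced C. Without oxidized C they were 0.59 and 0.51, with no call, and without oxidized A and B they were -0.50 and -0.44. Oxidized cells had the higher level in A and B and a slightly lower one in C. With the population as a block, the SE of the redox difference was 0.18 for both genes. The adjusted p was then 0.514 for Otx2 and 0.584 for Fgf5 (limma). The population term of the blocked limma fit, added after the values were seen, had an unadjusted p of 0.00583 for Otx2 and 0.0104 for Fgf5, and no member passed correction (adjusted p = 0.691 and 0.771). Among all genes 5.35% had an unadjusted p under 0.05 for that term and 0.131% passed correction. The remaining 7 members had unadjusted p-values above 0.05 for that term.

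The profiles of Otx2 and Fgf5 over the 6 libraries were nearly the same. Each gene's log2(FPKM + 1) values were centred on their mean, and the likeness of a pair was the root mean square distance between them. Fgf5 lay 0.07 from Otx2, and of 7091 genes averaging 5 FPKM or more none was closer. Fgf5 stood at 1.49 to 1.81 times the level of Otx2 in the 6 libraries. Among 6501 of these genes, left after members and symbols of an unusual form or of predicted genes were set aside, those nearest to Otx2 included Fam169a, Emb (a cell adhesion protein), Igfbp3 (a binding protein for insulin-like growth factors) and Scamp1, at distances of 0.10 to 0.12. Libraries of the same population share their source, so these are not 6 independent points.

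The nearest genes to Pou5f1, among the same 6501, were Gls2 (a glutaminase), Rpp25, Tcf15 (a transcription factor of early mesoderm and epiblast), Slc7a7 (an amino acid transporter) and Gstt2 (a glutathione transferase), at distances of 0.08 to 0.12. Tcf15 was at 13.6, 14.4 and 5.69 FPKM in oxidized cells (A, B, C) and at 18.4, 16.3 and 15.4 FPKM in the reduced libraries. Of the members Sox2 was nearest, at 0.28, and Utf1 next at 0.37. Among the 7091 genes averaging 5 FPKM or more, 162 were closer than Sox2 and 671 closer than Utf1.

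**Figure D3:**
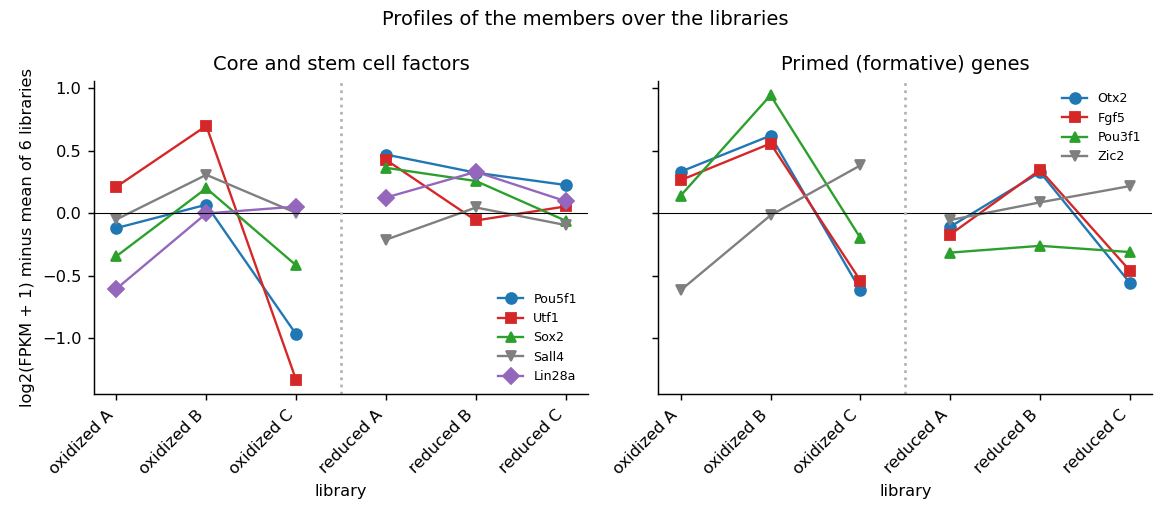
Log2(FPKM + 1) of each tested member minus its mean over the 6 libraries, with core genes on the left and primed genes on the right; lines only join the libraries of a group and imply no order. Pou5f1 and Utf1 are lowest in oxidized C, and Otx2 and Fgf5 nearly coincide in all 6 libraries.

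Zic2, a zinc-finger factor of the primed epiblast and neural plate (chr14:122475435-122479852), ran in the other direction. It was at 0.383, 1.09 and 1.76 FPKM in oxidized cells (A, B, C) and at 1.04, 1.25 and 1.46 FPKM in the reduced libraries. Both libraries of population C were above the 4 others, and oxidized A was the lowest. The log2 difference was -0.17 (SE 0.25, adjusted p = 0.744) and changed sign without oxidized A (0.10, adjusted p = 0.847) and without oxidized A and B (0.30, 0.615). It was -0.40 without oxidized C (0.300). Zic2 rested on about 17.4 to 61.6 fragments per library, so its values are the least precise of the tested members.

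Among 18 further core and primed genes, 17 were tested and 1 was called, lower in oxidized cells. This was Tdgf1, the Nodal co-receptor, at 41.8 ± 7.63 against 129 ± 32.7 FPKM (log2 difference -1.58, adjusted p = 0.0323; 0.0564 with the population as a block). It lost its call without oxidized A, oxidized B, reduced A or reduced B (adjusted p = 0.0747 to 0.159). The list's median log2 difference was -0.04, beside 0.08 for all genes. L1td1, an RNA-binding protein of undifferentiated cells, was at 10.4 ± 1.54 against 21.1 ± 4.72 FPKM (adjusted p = 0.0728; 0.0485 with median-ratio scaling, 0.0452 with quantile normalization and 0.0364 without oxidized C). Nanog, the third factor of the core circuit, was at 44.3, 49.0 and 11.5 FPKM in oxidized cells (A, B, C) and at 24.2, 27.2 and 18.2 FPKM in the reduced libraries (adjusted p = 0.707). Its log2 difference of 0.35 followed the libraries used: it was 0.99 without oxidized C (adjusted p = 0.0180, called higher), 0.07 without oxidized A (0.963), near 0 without oxidized B (0.997) and -0.93 without oxidized A and B (0.227).

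Naive genes, which are active before the primed state, had 0 of 12 tested genes called (limma). An unadjusted p under 0.05 was found for 4, all lower in oxidized cells, against 19.4% of all tested genes in either direction. The list's median difference was -0.37, beside 0.08 for all tested genes, and 11 of 12 differences were negative. The summed level of the list was 212 to 290 FPKM in the oxidized and 318 to 432 FPKM in the reduced libraries. Tfcp2l1, a naive transcription factor, was at 2.50 ± 0.742 against 6.09 ± 0.963 FPKM (adjusted p = 0.0666), Spry4, a feedback inhibitor of FGF signalling, at 2.37 ± 0.521 against 4.56 ± 0.360 FPKM (0.0981) and Zfp42 (Rex1) at 45.6 ± 9.23 against 95.7 ± 36.2 FPKM (0.138). All 3 were called without oxidized C (limma, adjusted p = 0.0207, 0.0228 and 0.0443), as were 9.72% of all tested genes. Tfcp2l1 was also called with quantile normalization (0.0442).

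Partners of the members were measured as well. Of the 10 genes of the LIN28 and let-7 axis none was called, and 3 had an unadjusted p under 0.05 (limma). The list had 9 positive differences and a median of 0.28, beside 0.08 for all tested genes. For this and the next lists, 19.4% of all tested genes were under that p, in either direction. Hmga2, a chromatin protein whose mRNA is a let-7 target, was at 13.9 ± 0.275 against 8.46 ± 1.46 FPKM (adjusted p = 0.108), and Igf2bp2, an RNA-binding protein, at 21.3 ± 6.58 against 13.3 ± 1.35 FPKM (0.199; 0.0282 without oxidized C and 0.808 without oxidized A and B). Of 11 genes for NuRD subunits, the partners of Sall4, none was called (1 with an unadjusted p under 0.05; median 0.11), led by Gatad2b at 1.71 ± 0.413 against 0.881 ± 0.0622 FPKM (adjusted p = 0.165) and Mta1 (0.285). Of 8 tested FGF receptor and ERK feedback genes none was called (1 with an unadjusted p under 0.05; median 0.27), led by Fgfr3 at 1.59 ± 0.595 against 0.461 ± 0.123 FPKM (adjusted p = 0.108) and Fgfr2 (0.303).

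Markers of other cell types that express members are given by their summed levels, which were not tested. Germ cell genes, a lineage that keeps Pou5f1, Sox2 and Sall4, summed to 41.4 to 58.3 FPKM in the oxidized and 77.6 to 93.2 FPKM in the reduced libraries. Of 8 tested 1 was called: Ddx4, a germ cell RNA helicase, was lower in oxidized cells, at 1.58 ± 0.402 against 4.40 ± 0.719 FPKM (adjusted p = 0.0466; 0.0782 with the population as a block), and the call was lost without any 1 library except oxidized C (0.0602 to 0.213). Sycp3, of the meiotic chromosome axis, was at 12.5 ± 5.51 against 28.1 ± 13.0 FPKM (adjusted p = 0.154). Of the 8 tested differences 7 were negative and 1, that of Kit, was positive (0.16). Tfap2c and Prdm1 had limma adjusted p-values of 0.273 and 0.683, and Dazl did not reach a mean of 1 FPKM. Sycp3 or Dnd1 was the largest germ cell value in every library. The part of germ cells in the lower level of Pou5f1 was not tested. Endoderm genes, a lineage that keeps Otx2, summed to 33.0 to 41.8 FPKM in the oxidized and 12.9 to 17.7 FPKM in the reduced libraries. Of 8 tested 0 were called (limma). An unadjusted p under 0.05 was found for 7, all higher in oxidized cells, against 19.4% of all tested genes in either direction. Ttr was at 2.22 ± 0.907 against 0.351 ± 0.107 FPKM (adjusted p = 0.0599) and Foxa2 at 2.22 ± 0.416 against 0.619 ± 0.271 FPKM (0.0613), and both were called without oxidized C (0.00343 and 0.0293). The defining gene Afp reached no more than 0.698 FPKM in any library. Streak and mesoderm genes summed to 201.6 to 276 FPKM in the oxidized and 177 to 212 FPKM in the reduced libraries, which overlap. Hand1 was the largest part in every library, at 188, 154 and 127 FPKM in oxidized cells (A, B, C) and 81.8, 62.9 and 97.6 FPKM in the reduced libraries. Of the 11 tested differences 7 were negative and 4 positive, with a median of -0.16. Among the 11, 1 was called. This was T (brachyury), lower in oxidized cells at 4.51 ± 1.06 against 14.7 ± 0.232 FPKM (limma, adjusted p = 0.0158, and 0.0601 with the block). T lost its call without oxidized A or B or reduced A or B (0.0619 to 0.130). Hand1 was at 156 ± 30.6 against 80.8 ± 17.4 FPKM (0.0877; 0.0165 without oxidized C).

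**Figure D4:**
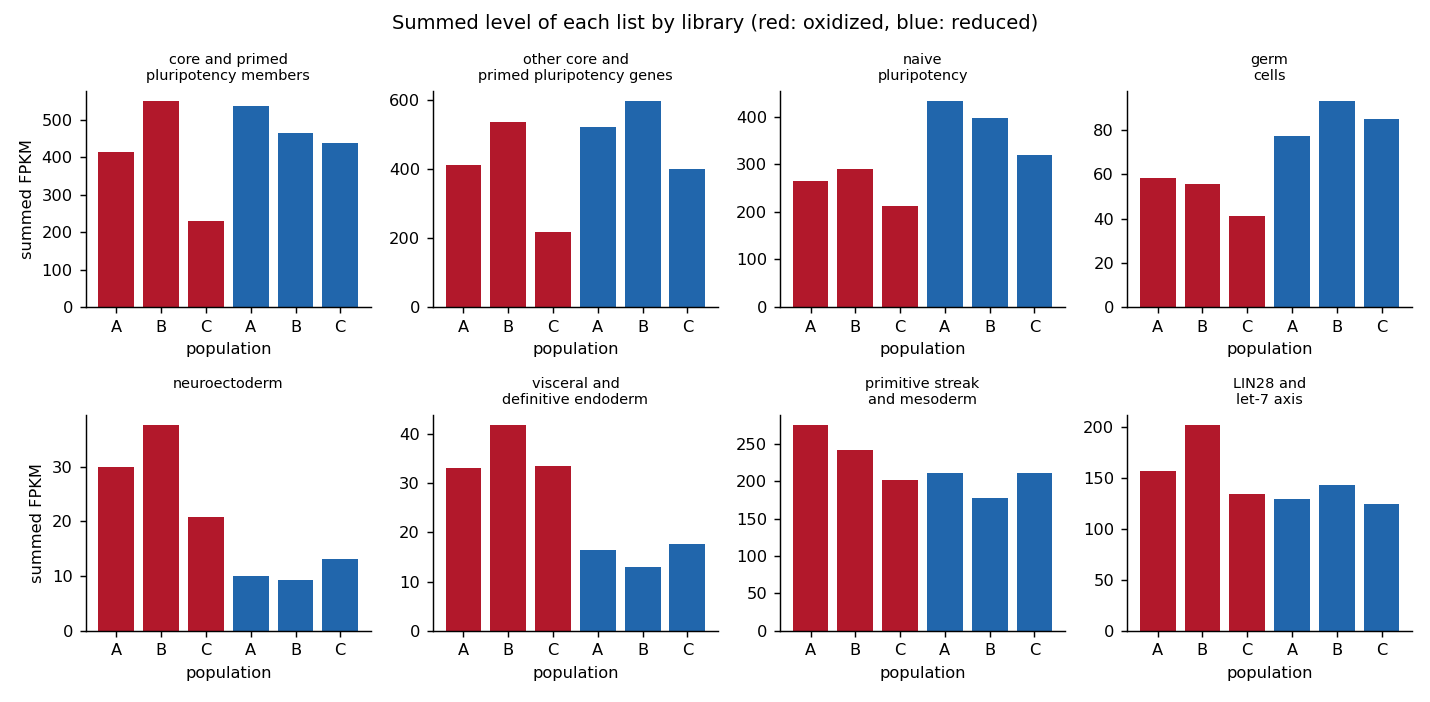
Summed FPKM of 8 gene lists in each library, oxidized in red and reduced in blue, with bars from 0. The 10 members together were lowest in oxidized C, at 230 FPKM, and between 414 and 550 FPKM in the other 5 libraries. Neuroectoderm and endoderm sums were higher in every oxidized library than in any reduced one, as were 16.2% of single tested genes. A few genes weigh most in these sums: Irx3, Cdh2 and Nes were the largest neuroectoderm values in each library, and Gata4 or Gata6 the largest endoderm value.

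Leaving out oxidized C raised the calls among all genes to 1185 (9.72% of those tested). In that fit, as in the fit without population C, the oxidized group was oxidized A and B alone. These are the libraries with low CT010467 and high mitochondrial mRNA levels, so redox group and this split cannot be told apart. None of the 9 members was called in the limma fit without oxidized C, and 3 had an unadjusted p under 0.05. The share of all genes under that p in the same fit is not given here, so the count of 3 is a description only. Without oxidized A and B a lone oxidized library was left, so calls in that fit cannot decide whether the named genes differ. Only the signs are compared: among the 22 named genes of the other lists, Nanog alone had the other sign there (log2 difference -0.93).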

How the data were processed

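Poly(A) RNA of 6 sorted libraries was sequenced as stranded paired ends, per the labels' protocols. The build was mm10, and the tools listed, without versions, are FastQC, cutadapt, StringTie, HISAT2 and edgeR, per the submitters' processing notes. The authors deposited FPKM values per gene and library, a fold column (the ratio of group means), its log2 and their own p-value and q-value, per the file headers, which do not name the test. Low FPKM values fell on whole fragments, within 2%, for only 33.9% to 37.5% of values, so reads were not recovered and depth is an estimate. Use of strand in counting is not stated in these sources. Antisense or overlapping genes of Pou5f1, Sox2, Sall4, Lin28a and Otx2 were listed at 0.720 FPKM or less, and Gm2164, which overlaps Pou3f1, was not analysed here. At most 2.75% of the 50-base stretches of a member occur in transcripts of other genes (GENCODE vM21).

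Values were put on the scale log2(FPKM + 1), genes averaging 1 FPKM or more were kept, and a model of the group alone was fitted with limma 3.58.1 (R 4.3.3) and a mean-variance trend, two-sided, with Benjamini-Hochberg adjustment over all tested genes. Log2 differences understate the change of low genes. The fit was tested on simulated data. The members and lists were chosen with earlier results of these data known. Named genes are the members, the 2 genes with the smallest p of each other list, Tdgf1, Nanog and Zfp42, and the 5 genes most like Pou5f1 and Otx2, of which 1 is not reported here. Oxidized and reduced cells of a letter come from 1 population, per the series' design text, so libraries of a letter are paired. Across genes, paired deviations had r = -0.06 (A), 0.07 (B) and 0.20 (C). Between libraries of different letters r ran from -0.17 (oxidized B with reduced C) to 0.13 (oxidized A with reduced B). Alternatives were the block, other scalings, filters and pseudocount, no trend, and leaving out libraries or populations.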

Additional observations from a re-analysis of the deposited data

How the results depend on the processing

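No member was called in any of the 17 alternative settings, and the lowest adjusted p of a member was 0.0544 (Pou3f1 without population C). Of the 9 tested members 5 kept the sign of their difference in every setting: Pou5f1, Sox2, Lin28a, Sall4 and Pou3f1. Otx2 and Fgf5 changed sign without oxidized B and without oxidized A and B, Utf1 without oxidized C and without population C, and Zic2 in 3 settings without oxidized A. The number of called genes was 97, and it was 4 with the population as a block, 1 with no filter, 2, 3 and 1479 without population A, B and C, 4 without oxidized A and B, and 3 to 1185 without 1 library (1185 without oxidized C). Without oxidized C or population C the oxidized group was oxidized A and B alone, so redox group and their low CT010467 level cannot be told apart. The block changed no call of a member. The members' median of -0.17 ranged from -0.20 to 0.22 without 1 library and was 0.21 without population C and -0.44 without oxidized A and B; it was positive without oxidized A (0.10), oxidized C or population A (0.03). Without oxidized A and B a lone oxidized library is assumed to vary like the reduced ones. Depth limits Zic2 and Epha5 most.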

Other observations

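Of the 4 tested primed members Otx2 and Fgf5 had both libraries of population C below the 4 others, Pou3f1 did not, and Zic2 was highest there. Of the 17 tested further core and primed genes 8 had both libraries of population C below the 4 others, against 10.4% of all tested genes: Nanog, Zic5, Dnmt3a, Dnmt3b, Zscan10, Pim2, Cdh1 and Epcam. The list mixes core and primed genes, and the 8 were chosen after their values were seen. Dnmt3b, a de novo DNA methyltransferase of the epiblast, was at 40.4, 72.7 and 25.9 FPKM in oxidized cells (A, B, C) and at 48.4, 48.9 and 36.2 FPKM in the reduced libraries. Zic5, a family member of Zic2, was at 4.55, 7.22 and 2.61 FPKM in oxidized cells (A, B, C) and at 4.62, 6.72 and 3.38 FPKM in the reduced libraries, so that population C was lowest for Zic5 and highest for Zic2. Of the naive genes 3 of 12 shared the pattern (Prdm14, Nr0b1 and Tcl1).

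Sox3, the closest relative of Sox2 and a gene of the epiblast and neural plate, was at 3.84, 9.58 and 2.65 FPKM in oxidized cells (A, B, C) and at 3.21, 2.61 and 3.58 FPKM in the reduced libraries. Oxidized B was the highest library, as it also was for Pou3f1, Sall4, Utf1, Otx2 and Fgf5. Lin28b, the paralogue of Lin28a, was at 3.98, 4.41 and 3.89 FPKM in the oxidized and 3.01, 4.06 and 3.64 FPKM in the reduced libraries, with a log2 difference of 0.16 (limma, adjusted p = 0.607) where that of Lin28a was -0.37. Sox3 and Lin28b were chosen after their values were seen.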
